A study of Homo sapiens with 4 samples.

Results

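A set of 39 genes known to respond to androgen in prostate cells were followed through the induction of a methyl-CpG-binding activator in LNCaP-derived cells. They were listed by name, and each was read from 1 probe, the brightest of the gene's probes by its mean over the 4 arrays. A probe was found for 38 of the 39 genes, out of 19482 genes with a named probe. UGT2B17, which encodes an androgen-conjugating enzyme, matched no probe. The genes fell into surface and secreted proteins (11 genes), enzymes (9), signalling and trafficking proteins (10) and transcriptional and nuclear proteins (9).

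LNCaP is an androgen-responsive human prostate cancer cell line. TR9-MeTA14 and TR15-MeTA5 were stable lines derived from it through the Tet repressor lines TR9 and TR15, and both carried a tetracycline-inducible construct for NFκB (AD)-MBD, a FLAG-tagged fusion of the NFκB activation domain with a methyl-CpG-binding domain. The fusion is designed to switch on genes with methylated promoters, an approach abbreviated MeTA. The 4 groups were TR9-MeTA14 -Tet, TR9-MeTA14 +Tet, TR15-MeTA5 -Tet and TR15-MeTA5 +Tet, where +Tet means tetracycline for 4 days, and each group was 1 one-colour Agilent array of total RNA from cells in RPMI1640 with fetal bovine serum. Androgen was not varied, every group carried the Tet repressor and the construct, and arrays of TR9 and TR15 cells without the construct are not analysed here, so tetracycline and the induced protein cannot be told apart. Whether each line is a single clone is not given in the sources used here.

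Androgen signalling acts in the nucleus through response elements in DNA and switches on genes for secretion, lipid and steroid metabolism, and growth control. In luminal prostate cells and in LNCaP these targets include proteases of the seminal fluid, membrane proteins used as tumour markers and chaperones of steroid receptors. The list also holds enzymes that clear androgens, and it was not split by whether androgen raises or lowers a gene. Several of the same genes, such as FKBP5, SGK1 and ZBTB16, also answer to glucocorticoids in other cells.

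Values are relative signals, meaning the processed signal of a probe divided by the 75th percentile of the probes on the same array, so that a probe can be compared between arrays but not with another probe. Fold changes are +Tet over -Tet on that scale. With 1 array per condition, no test was possible within a line, and a change was called at 2-fold, the cut-off of the study's methods. Where the dimmer array was not well above background, the fold is a lower bound, written "at least". In RNA from whole cultures, fewer cells expressing a gene and less RNA per cell cannot be told apart.

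The promoters of 4 genes are shown because these genes carry the main contrasts: ALDH1A3 was higher with tetracycline in both lines, C1orf116 was lower in both, SLC45A3 was many-fold lower in TR9-MeTA14 and under the cut-off in TR15-MeTA5, and UGT2B15 went opposite ways. Each run gives the 250 bases before the gene's start in RefSeq on GRCh38.p14, 5′ to 3′ on the gene's strand, with each CG, the dinucleotide that can be methylated, in capitals. In UGT2B15, which has no CG, the capitals mark AGAACA, the half-site letters of steroid receptor elements.
ALDH1A3, chr15:100879581-100879830, plus strand: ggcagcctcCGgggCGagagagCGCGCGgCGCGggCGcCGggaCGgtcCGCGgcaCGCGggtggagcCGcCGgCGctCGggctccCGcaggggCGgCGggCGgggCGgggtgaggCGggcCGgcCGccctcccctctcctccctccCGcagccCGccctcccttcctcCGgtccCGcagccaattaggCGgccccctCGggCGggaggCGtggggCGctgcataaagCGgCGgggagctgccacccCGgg
C1orf116, chr1:207032757-207033006, minus strand: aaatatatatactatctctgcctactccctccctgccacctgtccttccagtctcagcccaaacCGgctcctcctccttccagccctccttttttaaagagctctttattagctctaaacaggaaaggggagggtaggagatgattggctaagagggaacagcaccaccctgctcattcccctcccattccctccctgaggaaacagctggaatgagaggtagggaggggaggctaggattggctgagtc
SLC45A3, chr1:205680510-205680759, minus strand: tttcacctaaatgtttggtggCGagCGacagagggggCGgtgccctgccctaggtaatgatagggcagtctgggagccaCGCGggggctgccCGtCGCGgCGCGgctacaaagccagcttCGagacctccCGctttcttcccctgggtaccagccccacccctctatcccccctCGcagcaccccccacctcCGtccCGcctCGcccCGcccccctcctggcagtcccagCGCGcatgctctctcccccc
UGT2B15, chr4:68670653-68670902, minus strand: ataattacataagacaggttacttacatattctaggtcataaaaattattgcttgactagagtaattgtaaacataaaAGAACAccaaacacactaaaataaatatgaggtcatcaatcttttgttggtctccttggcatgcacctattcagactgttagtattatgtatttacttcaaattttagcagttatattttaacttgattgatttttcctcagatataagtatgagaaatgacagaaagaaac

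The ALDH1A3 promoter held 38 CG in these bases and that of SLC45A3 held 19, against 1 for C1orf116 and 0 for UGT2B15. A RefSeq window of 300 bases, 250 before and 50 after the start, was at hand for 30 of the 39 genes. The median number of CG per window was 21.0 over these 30 genes and 13.0 over 27305 genes with a window. It was 26.0 (range 1 to 45) over the 17 genes at least 2-fold lower in TR9-MeTA14 and 16.0 (range 0 to 52) over the 13 others. The ranges overlap, and the difference was not tested. Where a gene had several windows, the most upstream was used. Methylation of these CG was not measured on the arrays. AGAACA or its complement TGTTCT, read on both strands, occurred in the windows of 3 of 30 genes (10.0%: UGT2B15, FKBP5 and PMEPA1), against 14.8% of all windows. The full palindromic element, searched on both strands as GNACA, any 3 bases and TGTNC, occurred in 0 of 30 windows and in 0.388% of all windows, and AGAACA may overlap it.

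In TR9-MeTA14, most of the androgen-responsive genes that could be compared were lower with tetracycline, many by several-fold. In TR15-MeTA5 fewer of them passed 2-fold. Of 36 genes compared in TR9-MeTA14, 22 (61.1%) were at least 2-fold lower and 3 (8.33%) at least 2-fold higher. Over all 15078 genes compared, 15.1% were at least 2-fold lower and 16.8% at least 2-fold higher. In TR15-MeTA5, 6 of 34 genes (17.6%) were at least 2-fold lower and 1 (2.94%) at least 2-fold higher, against 2.21% lower and 9.77% higher over 14336 genes. In TR15-MeTA5 the share of higher genes among those changed depended on the scaling, being 14.3% as given, 33.3% when normexp and quantile normalization replaced it, and 100% (2 of 2 genes) after scaling on spike-in probes.

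The median log2 fold change of the list was -1.16 in TR9-MeTA14 and -0.63 in TR15-MeTA5, against -0.06 and -0.16 over all genes. In TR9-MeTA14, 28 of 36 genes (77.8%) lay below the median of all genes, and in TR15-MeTA5 31 of 34 (91.2%) did. Scaling on spike-in probes, which shifts every gene of a line by the same amount, moved the median of all genes in TR15-MeTA5 to 0.27 and that of the list to -0.20.

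**Figure D1:**
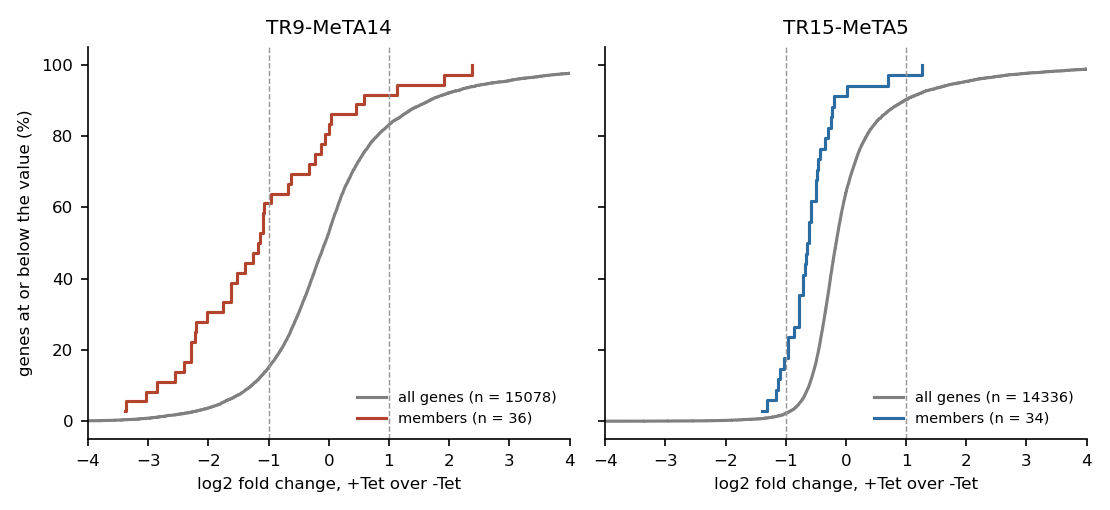
Cumulative share of genes (y axis, percent) at or below each log2 fold change, +Tet over -Tet (x axis), for the androgen-responsive genes (coloured steps; n = 36 in TR9-MeTA14 and 34 in TR15-MeTA5; a bound is drawn at its value) and all genes compared (grey), with 2-fold dashed. The coloured steps lie to the left of the grey curve in both lines over most of the range, with medians of -1.16 and -0.63 against -0.06 and -0.16.

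In all, 4 genes were at least 2-fold lower in both lines (TMEFF2, ACSL3, HERC3 and C1orf116) and 1 was at least 2-fold higher in both (ALDH1A3), of 34 compared in both. Over 13973 genes compared in both lines, 0.837% were lower and 8.21% higher in both, and of the list 11.8% were lower and 2.94% higher in both. The split depended on the scaling: the higher share of the genes changed in both lines was 1 of 5 as given, 1 of 2 with normexp and quantile normalization and 1 of 1 with spike-in scaling. Of the 22 genes at least 2-fold lower in TR9-MeTA14, 21 could be compared in TR15-MeTA5. All 21 had log2 fold changes below 0 there as well, from -1.39 to -0.23 with a median of -0.69, although EAF2, ZBTB16 and MPHOSPH9 turned to 0.18, 0.20 and 0.08 under spike-in scaling. Over all 2100 genes at least 2-fold lower in TR9-MeTA14 and compared in TR15-MeTA5, 92.2% were below 0 there, with a median of -0.48. Of 33 genes measured on all 4 arrays, 23 (69.7%) had a more negative log2 fold change in TR9-MeTA14 than in TR15-MeTA5, against 48.9% of 12692 genes. With 1 array per condition, the difference between the lines could not be tested.

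**Figure D2:**
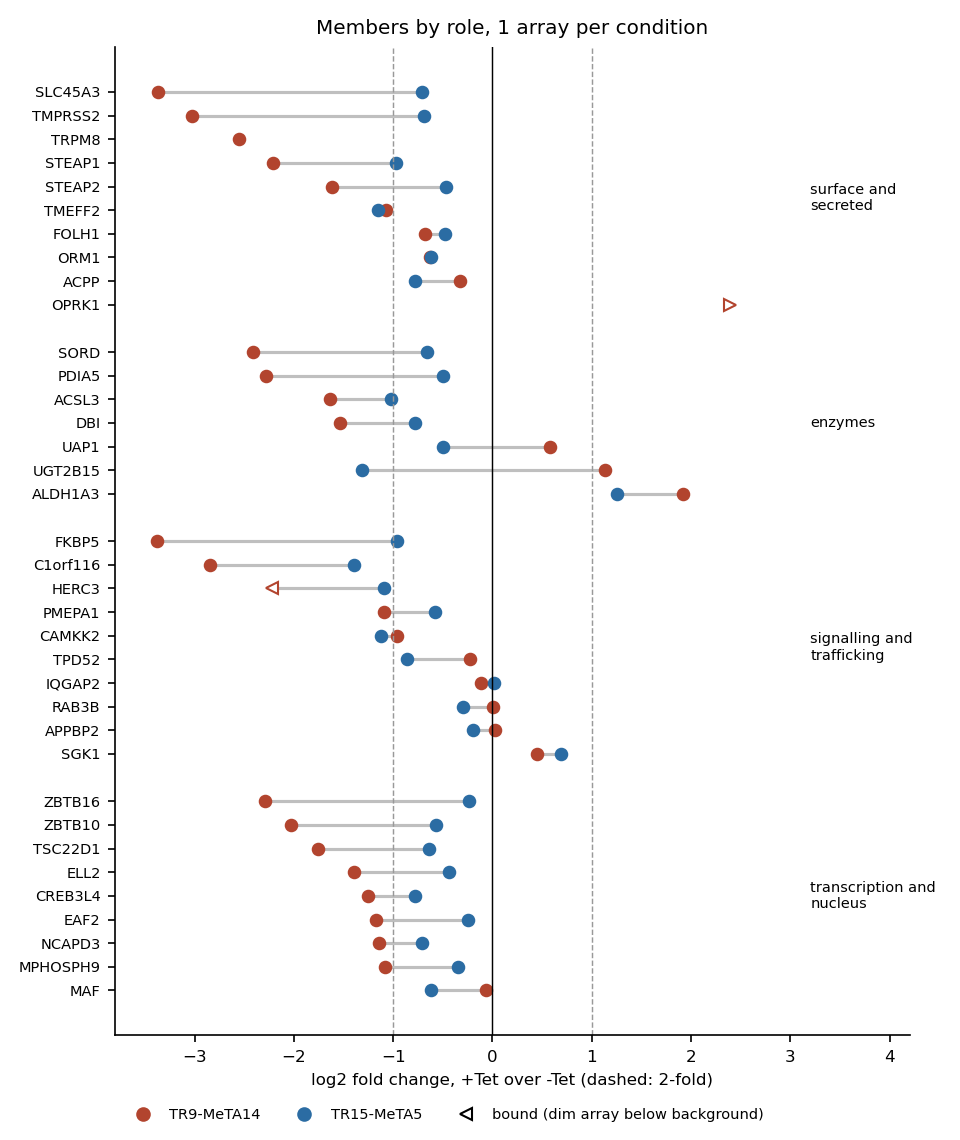
Log2 fold change, +Tet over -Tet (x axis), of each gene that could be compared, in TR9-MeTA14 (red) and TR15-MeTA5 (blue), grouped by role, 1 array per condition; open triangles are bounds and dashed lines mark 2-fold. In the nuclear group 8 of 9 red points lie beyond -1 and no blue point does, and UGT2B15 has its points on opposite sides of 0.

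Among surface and secreted proteins, 6 of 10 genes compared in TR9-MeTA14 were at least 2-fold lower and 1 higher, with a median log2 fold change of -1.35. In TR15-MeTA5, 1 of 8 was lower. Over all genes, 15.1% were at least 2-fold lower and 16.8% higher in TR9-MeTA14, and 2.21% were lower in TR15-MeTA5. SLC45A3 (prostein), a transporter of the prostate epithelium, had relative signals of 40.2 in TR9-MeTA14 -Tet, 3.89 in TR9-MeTA14 +Tet, 51.1 in TR15-MeTA5 -Tet and 31.2 in TR15-MeTA5 +Tet. It was 10.3-fold lower with tetracycline in TR9-MeTA14 and 1.64-fold lower in TR15-MeTA5, so a single array, TR9-MeTA14 +Tet, stood far below the others. TMPRSS2, the androgen-regulated serine protease that is the common fusion partner of ETS genes, read 22.9, 2.80, 18.2 and 11.3 in the same order. That was 8.16-fold lower in TR9-MeTA14 and 1.61-fold lower in TR15-MeTA5.

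The metalloreductases of the STEAP family, named as six-transmembrane epithelial antigens of the prostate, varied among themselves. STEAP1 read 12.3, 2.66, 17.9 and 9.17, which was 4.63-fold lower in TR9-MeTA14 and 1.96-fold lower in TR15-MeTA5. STEAP2 read 9.65, 3.14, 5.14 and 3.72, or 3.07-fold and 1.38-fold lower. STEAP4 was not well above background on any array with either of its probes. For STEAP1 and STEAP2 a second, dimmer probe gave the same directions: 5.03-fold and 1.90-fold lower for STEAP1, and 4.23-fold and 1.53-fold lower for STEAP2.

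TRPM8, a cation channel that senses cold, was measured mainly in one line. It read 0.227 in TR9-MeTA14 -Tet and 0.0386 in TR9-MeTA14 +Tet, or 5.88-fold lower, and was not well above background in either TR15-MeTA5 array. TMEFF2, a transmembrane protein with follistatin-like domains, read 0.828, 0.393, 8.78 and 3.94. It was thus 2.11-fold lower in TR9-MeTA14 and 2.23-fold lower in TR15-MeTA5, although the levels in TR15-MeTA5 lay far above those in TR9-MeTA14. OPRK1, the kappa opioid receptor, was well above background only in TR9-MeTA14 +Tet, at 0.131, and was at least 5.23-fold higher there with tetracycline. With normexp and quantile normalization this bound was a log2 fold change of 0.64, under the cut-off.

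The tumour marker FOLH1, which encodes prostate-specific membrane antigen, showed small differences. It read 56.2, 35.1, 42.0 and 30.2, or 1.60-fold and 1.39-fold lower. ORM1, an acute-phase plasma protein, read 0.224, 0.145, 1.10 and 0.715, or 1.55-fold and 1.53-fold lower. ACPP, prostatic acid phosphatase, read 2.80, 2.23, 2.23 and 1.30, or 1.26-fold and 1.72-fold lower. A dimmer probe of ACPP read 0.113, 0.0831, 0.267 and 0.0831 and gave 1.36-fold and 3.21-fold lower, so the size in TR15-MeTA5 depended on the probe. All 3 stayed under the 2-fold cut-off in both lines with the probe used.

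**Figure D3:**
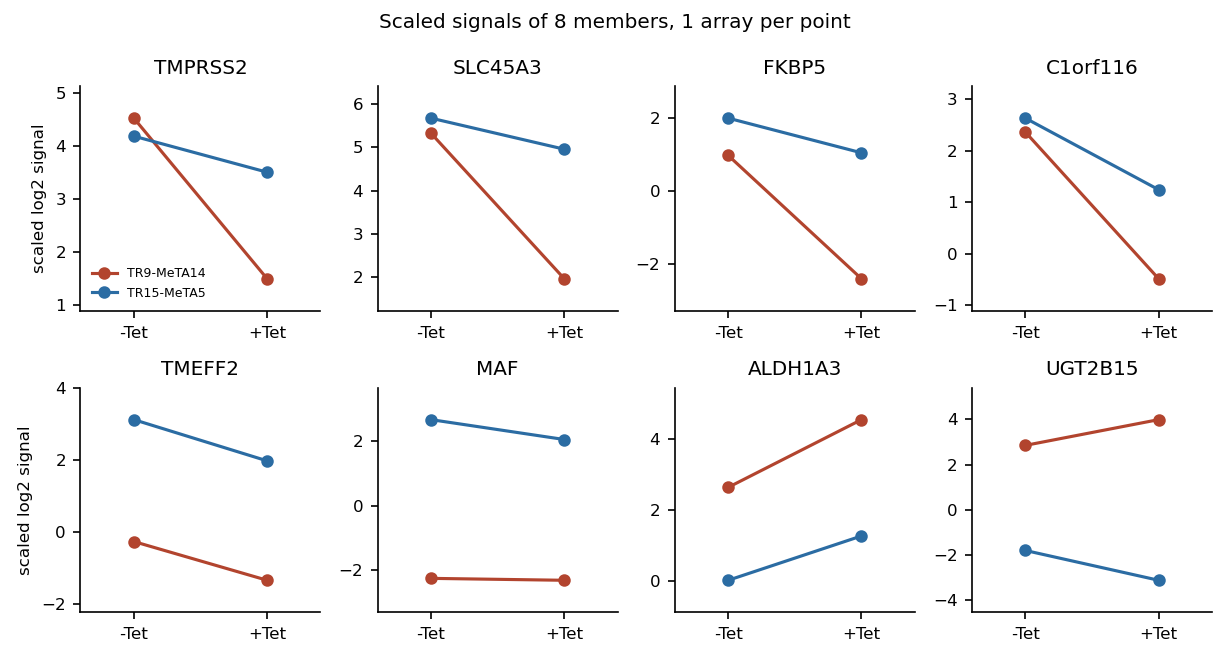
Scaled log2 signal (y axis; log2 of the relative signal) of 8 genes without and with tetracycline (x axis) in TR9-MeTA14 (red) and TR15-MeTA5 (blue), each point 1 array, with y axes that differ between panels. TMPRSS2 and SLC45A3 each start within 1.27-fold between the lines and, like FKBP5, end lowest in TR9-MeTA14, TMEFF2 and MAF differ more between the lines than with tetracycline, and UGT2B15 moves in opposite directions.

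Enzymes held 2 of the 3 genes that were at least 2-fold higher in TR9-MeTA14. In TR9-MeTA14, 4 of 7 enzymes compared were at least 2-fold lower and 2 higher, with a median log2 fold change of -1.53. In TR15-MeTA5, 2 of 7 were lower and 1 higher, with a median of -0.66. The shares over all genes were 15.1% lower and 16.8% higher in TR9-MeTA14, and 2.21% lower and 9.77% higher in TR15-MeTA5. SORD, which oxidises sorbitol to fructose, read 28.8, 5.41, 27.8 and 17.6, or 5.32-fold lower in TR9-MeTA14 and 1.58-fold lower in TR15-MeTA5. PDIA5, a disulfide isomerase of the endoplasmic reticulum, read 8.17, 1.68, 12.4 and 8.75, or 4.86-fold and 1.42-fold lower. Both were again lowest in TR9-MeTA14 +Tet.

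ACSL3 and DBI handle lipids. ACSL3, which activates long-chain fatty acids, read 3.13, 1.01, 5.11 and 2.52, or a log2 fold change of -1.63 in TR9-MeTA14 and 2.03-fold lower in TR15-MeTA5. DBI, the acyl-CoA-binding protein, read 68.6, 23.7, 94.9 and 55.3, or 2.89-fold and 1.72-fold lower.

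ALDH1A3, which makes retinoic acid from retinaldehyde, was the gene of the list that was at least 2-fold higher in both lines. It read 6.22 in TR9-MeTA14 -Tet, 23.5 in TR9-MeTA14 +Tet, 1.01 in TR15-MeTA5 -Tet and 2.42 in TR15-MeTA5 +Tet, or 3.77-fold and 2.39-fold higher. UAP1, which makes UDP-N-acetylglucosamine, read 10.5, 15.7, 10.3 and 7.28, which gave log2 fold changes of 0.58 in TR9-MeTA14 and -0.50 in TR15-MeTA5. HPGD, which inactivates prostaglandins, was not well above background on any array.

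UGT2B15, a glucuronosyltransferase that conjugates androgens for clearance, went opposite ways in the lines. It read 7.23 and 15.9 in TR9-MeTA14 and 0.287 and 0.115 in TR15-MeTA5, or 2.19-fold higher in the first and 2.49-fold lower in the second, and the levels of the lines did not overlap. Among other UGT2B and androgen metabolism genes, 4 of 9 compared were at least 2-fold higher in TR9-MeTA14 and 2 lower, against 0 of 9 in either direction in TR15-MeTA5. Of all genes, 16.8% were higher and 15.1% lower in TR9-MeTA14, and 9.77% higher and 2.21% lower in TR15-MeTA5. The 4 higher genes, named after their values were seen, were UGT2B7, UGT2B10, UGT2B11 and the steroid reductase gene SRD5A2 (at least 4.82-fold). UGT2B7 read 0.230 and 13.2 in TR9-MeTA14 (57.4-fold higher) and 0.360 and 0.388 in TR15-MeTA5. UGT2B10 was 18.5-fold and UGT2B11 12.9-fold higher in TR9-MeTA14. The 2 lower genes, SRD5A3 (2.03-fold) and HSD17B6 (2.58-fold), were also named after their values were seen. The UGT2B genes are near-identical copies, so a probe may bind the transcripts of several of them, and the share of this in each value was not tested.

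**Figure D4:**
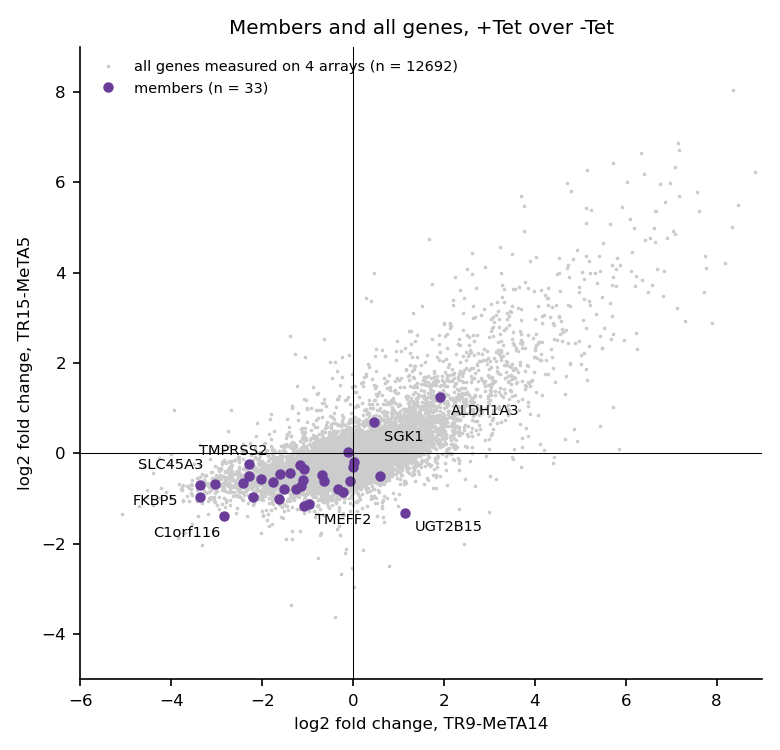
Log2 fold change, +Tet over -Tet, in TR9-MeTA14 (x axis) and TR15-MeTA5 (y axis) for the 33 androgen-responsive genes measured on all 4 arrays (purple) and 12692 genes (grey), each point 1 gene. Most purple points lie left of and below 0, with a wide spread along the x axis and a narrow one along the y axis, and ALDH1A3 and SGK1 lie above 0 on both.

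Signalling and trafficking proteins were mixed. In TR9-MeTA14, 4 of 10 were at least 2-fold lower, and in TR15-MeTA5 3 of 10 were, with none higher in either line. The shares over all genes were 15.1% and 2.21% lower, and 16.8% and 9.77% higher. FKBP5, a co-chaperone that tunes steroid receptors, changed in TR9-MeTA14 by about as much as SLC45A3. It read 1.95, 0.188, 3.98 and 2.05, or 10.4-fold lower in TR9-MeTA14 and 1.94-fold lower in TR15-MeTA5. C1orf116, known as specifically androgen-regulated gene, read 5.12, 0.713, 6.19 and 2.35, or 7.19-fold and 2.63-fold lower. In both genes the TR15-MeTA5 +Tet array lay well above the TR9-MeTA14 +Tet array.

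HERC3, a ubiquitin ligase, read 0.0838 and then not well above background in TR9-MeTA14, and 0.123 and 0.0576 in TR15-MeTA5. It was at least 4.67-fold lower in the first line and 2.13-fold lower in the second. With normexp and quantile normalization its log2 fold changes were -0.72 and -0.55, under the cut-off in both lines. PMEPA1, a membrane protein that restrains TGF-β signalling, read 9.79, 4.60, 16.8 and 11.2, or 2.13-fold lower in TR9-MeTA14 and a log2 fold change of -0.58 in TR15-MeTA5. A second PMEPA1 probe gave 1.77-fold and 1.46-fold lower, which is under the cut-off in both lines. CAMKK2, a calmodulin-dependent kinase upstream of AMPK, read 0.995, 0.511, 1.81 and 0.832, or 1.95-fold and 2.18-fold lower.

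SGK1, a serum- and glucocorticoid-regulated kinase, was the other gene higher in both lines, below the cut-off. It was 1.37-fold higher in TR9-MeTA14 and 1.62-fold higher in TR15-MeTA5. The 4 genes left in this group, IQGAP2, RAB3B, APPBP2 and TPD52, which act on the cytoskeleton and on vesicle traffic, differed by between 1.01-fold and 1.81-fold in both lines.

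Transcriptional and nuclear proteins gave different counts in the lines, a difference that was not tested, with 8 of 9 at least 2-fold lower in TR9-MeTA14 and 0 of 9 in TR15-MeTA5. Their median log2 fold changes were -1.25 and -0.57. Over all genes, 15.1% were at least 2-fold lower in TR9-MeTA14 and only 2.21% in TR15-MeTA5. ZBTB16 (PLZF), a zinc finger repressor, read 3.98, 0.814, 5.05 and 4.30, or 4.88-fold lower in TR9-MeTA14 and 1.17-fold lower in TR15-MeTA5. ZBTB10, a related zinc finger protein, read 0.196, 0.0480, 0.233 and 0.156, or 4.08-fold and 1.49-fold lower. TSC22D1, a leucine zipper protein induced by TGF-β, read 14.5, 4.30, 18.7 and 12.0, or 3.37-fold and 1.56-fold lower. In these 3 genes the untreated lines were close and the TR9-MeTA14 +Tet array lay below the rest.

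The elongation factor ELL2 and its partner EAF2 differed by smaller folds. ELL2 read 0.865, 0.330, 1.53 and 1.13, or 2.63-fold and 1.35-fold lower. EAF2 read 1.15, 0.511, 0.831 and 0.699, or 2.25-fold and 1.19-fold lower. CREB3L4, a membrane-bound transcription factor of the secretory pathway, read 27.4, 11.5, 39.3 and 22.8, or 2.38-fold and 1.72-fold lower. NCAPD3, a condensin subunit, was 2.21-fold and 1.64-fold lower, from 2.73 to 1.23 in TR9-MeTA14 and from 4.22 to 2.57 in TR15-MeTA5. MPHOSPH9, a centrosomal phosphoprotein, was 2.12-fold and 1.27-fold lower, from 0.284 to 0.134 and from 0.292 to 0.229. The remaining gene, MAF, a leucine zipper transcription factor, read 0.208, 0.199, 6.43 and 4.18, or 1.04-fold and 1.54-fold lower. Under spike-in scaling MAF turned to a log2 fold change of 0.08 in TR9-MeTA14.

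Genes close to the 2-fold line, where a small shift changes the call, were in TR9-MeTA14 TMEFF2 (log2 -1.07), PMEPA1 (-1.09) and MPHOSPH9 (-1.08) just inside and CAMKK2 (-0.96) just outside. In TR15-MeTA5 ACSL3 (-1.02) and HERC3 (-1.09) lay just inside and STEAP1 (-0.97) and FKBP5 (-0.96) just outside.

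Both lines were then taken as replicates in limma, which fits all probes together, with the line as a block and 1 residual degree of freedom. Of 35 genes of the list tested, 0 were called higher or lower at an adjusted p of 0.05, while at an unadjusted p of 0.05 18 were lower and 1 higher. Over all 22808 probes, adjusted calls were 2.57% higher and 0.0132% (3 probes) lower, and unadjusted calls were 11.5% higher and 7.89% lower. ALDH1A3 had the smallest adjusted p of the list, with a log2 fold change of 1.59 ± 0.29 (SE, 2 lines, limma) and adjusted p = 0.0972, and it was higher in 2 of 2 lines. C1orf116 came next, with -2.12 ± 0.43 (SE) and limma adjusted p = 0.118, then ACSL3 with -1.33 ± 0.29 and limma adjusted p = 0.134. For genes that differed in size between the lines the error was larger: SLC45A3 had -2.04 ± 0.70 (limma adjusted p = 0.246) and FKBP5 -2.17 ± 0.64 (limma adjusted p = 0.219).

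Before tetracycline, the lines were compared gene by gene. Of 35 genes compared between the -Tet arrays, 4 were at least 2-fold higher in TR15-MeTA5 and 3 at least 2-fold lower, against 8.16% and 5.18% of 13791 genes. This comparison shares its arrays with those above. MAF was 31.0-fold, TMEFF2 10.6-fold, ORM1 4.89-fold and FKBP5 2.04-fold higher in TR15-MeTA5. UGT2B15 was 25.2-fold, ALDH1A3 6.16-fold and TRPM8 at least 5.40-fold lower. FKBP5 (log2 1.03) lay just inside the cut-off and STEAP2 (-0.91) just outside. The share of higher genes among those different was 57.1% as given, 42.9% under quantile normalization and 15.8% (3 of 19 genes) under spike-in scaling, which moved the median of all genes from 0.12 to -0.93.

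**Figure D5:**
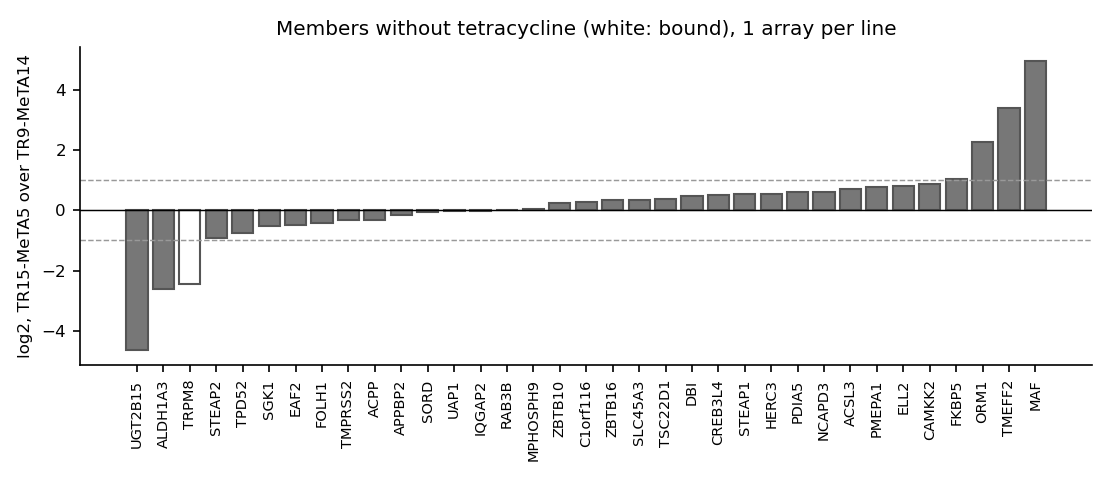
Log2 ratio of the untreated lines, TR15-MeTA5 over TR9-MeTA14 (y axis), for the 35 androgen-responsive genes compared (x axis, in order of the ratio), with 1 array per line and 2-fold dashed; the white bar of TRPM8 is a bound. MAF and TMEFF2 stand highest and UGT2B15 lowest, and 28 of the 35 bars lie within 2-fold.

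The kallikreins KLK2 and KLK3, secreted proteases read from other lists, were lower too. Both belong to the 50 other androgen-induced genes and to the 6 luminal markers below, so they enter those counts again. KLK2 read 20.1, 1.25, 23.0 and 11.7, or 16.0-fold and 1.98-fold lower. KLK3, which encodes prostate-specific antigen, read 233, 60.6, 369 and 228, or 3.85-fold and 1.62-fold lower.

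Of 50 other androgen-induced genes, 29 were at least 2-fold lower and 5 higher in TR9-MeTA14, with a median log2 fold change of -1.19. In TR15-MeTA5, 6 of 49 were lower and 0 higher, with a median of -0.56. Over all genes, 15.1% were lower and 16.8% higher in TR9-MeTA14, and 2.21% lower and 9.77% higher in TR15-MeTA5. The 5 higher genes, named after their values were seen, were MERTK, MAK, SAT1, TNFAIP8 and HSD17B14, from 2.18-fold to 4.49-fold. The 6 lower genes were lower in both lines, and INSIG1, which holds back sterol synthesis, had the largest folds of the smaller line, reading 4.86, 1.20, 3.83 and 1.12, or 4.06-fold and 3.42-fold lower (limma adjusted p = 0.0521). KRT19, a simple-epithelial keratin, was 3.28-fold and 2.33-fold lower, INPP4B, a lipid phosphatase, at least 5.13-fold and 2.26-fold, PLPP1, a lipid phosphate phosphatase, 3.43-fold and 2.14-fold, and TARP, a transcript of the T cell receptor gamma locus, 3.98-fold and 2.05-fold.

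Markers of the cell type were read on all arrays. All 6 luminal prostate markers were well above background on every array. Their summed relative signals were 390 and 134 in TR9-MeTA14 and 573 and 358 in TR15-MeTA5, -Tet then +Tet. Such sums add different probes and weigh the brightest most, so they can be compared between arrays but not between marker lists. KLK3 made up 233 and 60.6, then 369 and 228, of these sums, and KRT8, a luminal keratin, was 1.18-fold higher in TR9-MeTA14 and 1.27-fold lower in TR15-MeTA5. Of the 6 luminal markers, 4 were at least 2-fold lower in TR9-MeTA14 and 0 in TR15-MeTA5, against 15.1% and 2.21% of all genes. The median log2 fold changes of the 6 were -1.80 and -0.65. Of 4 basal markers and 5 fibroblast markers, 1 each (KRT15 and COL1A1) was above background, with summed signals of 0.191 to 0.329 and 0.147 to 0.805, and KRT5, KRT14, TP63, COL1A2, COL3A1, DCN and LUM were not well above background on any array. Of 4 leukocyte markers, 4 in TR9-MeTA14 and 3 in TR15-MeTA5 were above background, with sums of 0.338 and 1.83 in TR9-MeTA14 and 0.589 and 1.24 in TR15-MeTA5. CD14 was 9.62-fold and 4.77-fold higher with tetracycline, while PTPRC, the pan-leukocyte marker, was 1.19-fold higher and 1.53-fold lower and CD3E 1.33-fold higher and at least 2.55-fold lower. The part of these differences in the results above was not tested. Of 34127 probes, between 20556 and 24213 were well above background per array, the 75th percentile signals were between 366 and 776, and the precision is limited by the number of arrays.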

How the data were processed

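Total RNA of the 4 samples was labelled with Cy3 and hybridised to Agilent whole human genome arrays on 1 slide. The deposited files hold the authors' scanner output, with background-subtracted processed signals as an intensity per spot, not normalized between arrays. The submitters' notes name Feature Extraction 9.5.1 and the file headers 10.7.3.1.

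Outlier spots were dropped, spots of a probe averaged on the log2 scale, and the 75th percentile over non-control probes subtracted. Genes were named through RefSeq accessions (GRCh38.p14), which gave 1 gene for 25422 of 34127 probes (74.5%). The spread of repeated spots corresponds to an SD of 0.0875 of a log2 ratio. limma 3.58.1 in R 4.3.3 (lmFit and eBayes with a trend, line as block) was run on the 22808 probes that passed the background filter on 2 or more arrays, with Benjamini-Hochberg adjustment, and was tested on simulated data. The lines stand as 2 replicates, and the 1 residual degree of freedom is the difference between their tetracycline changes. The fit adds 3.22 prior degrees of freedom from the trend over all probes, so p-values rest on both. Python 3.11.15 was used otherwise.

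The 39 genes and the other lists (other androgen-induced genes, UGT2B and androgen metabolism, steroid receptors, and luminal, basal, fibroblast and leukocyte markers) were chosen with earlier results of these data known. Every gene of the list is accounted for. Values on all arrays are given for those past 2-fold in any comparison and for a fixed set of well-known targets. From the other lists KLK2, KLK3 and NR3C1 are named, with up to 5 genes per list that were past 2-fold the same way in both lines. Others are named, after their values were seen, where a count held 5 genes or fewer or a marker was described. Alternatives were other scalings, quantile normalization, normexp (offset 50) on median pixel signals, the deposited value table, spot and background filters, the mean over probes, cut-offs of 1.5-fold and 3-fold, and fits without block or trend. The deposited value table was identical to the processed signal. Some other genes are not reported here.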

Additional observations from a re-analysis of the deposited data

Results flagged for a closer look

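UGT2B15, which encodes an androgen-conjugating glucuronosyltransferase, changed in opposite directions in the lines. Its log2 fold change with tetracycline was 1.13 in TR9-MeTA14 and -1.31 in TR15-MeTA5, each from 1 array per condition. The difference between the lines was not tested, because each condition had 1 array. In limma over both lines it averaged -0.09 ± 0.64 (SE) on the log2 scale, with a limma adjusted p of 0.948.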

How the results depend on the processing

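With 1 array per condition no replicate could be left out, and no interval is given for a fold. No paired analysis was possible because the groups share only replicate number 1, beyond the line as a block already in the limma fit. Without that block limma called 0 genes (smallest adjusted p = 0.230, 2 genes at an unadjusted p of 0.05). No called value changed sign under the alternatives tried. Under spike-in scaling, all 58 fold changes of named genes moved, 40 did so with normexp and quantile normalization, 30 with quantile normalization alone, 5 with the mean over probes and 2 without the background filter, and the other alternatives moved 0.

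With a cut-off of 3-fold, 14 genes were lower in TR9-MeTA14, and 0 were higher and 0 lower in TR15-MeTA5 and in both lines. With 1.5-fold, 2 were higher and 19 lower in TR15-MeTA5, 15 lower in both lines, and 10 higher and 5 lower between the untreated lines. Spike-in scaling gave 2 higher and 0 lower in TR15-MeTA5, 0 lower in both lines, 16 lower between the untreated lines, medians of -1.02 in TR9-MeTA14 and -0.20 in TR15-MeTA5, and 1 gene called higher by limma (ALDH1A3, adjusted p = 0.0381). Normexp with quantile normalization gave 2 lower in TR15-MeTA5, 1 lower in both lines, and medians of -0.97 and -0.46, and quantile normalization alone a median of -0.49 in TR15-MeTA5. Without the background filter, 2 genes were higher in TR15-MeTA5 and 2 in both lines, and limma called 1 higher (ALDH1A3) and 1 lower (C1orf116), with a smallest adjusted p of 0.0333. Under the other fits the smallest limma adjusted p lay between 0.0628 and 0.230. Shares over all genes are not given at these other cut-offs and settings, so the counts show only how the calls of the list moved. As scaled in the main results, 64.1% of all genes were lower by any amount in TR15-MeTA5, and 91.2% of the list. The causes were not tested.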

Other observations

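Among 6 steroid receptor genes, NR3C1, the glucocorticoid receptor, was well above background only in TR15-MeTA5 +Tet, with a relative signal of 0.204. It was at least 4.86-fold higher there with tetracycline, a bound from 1 array per condition. Of the 4 compared in that line, it alone was at least 2-fold higher and 0 were lower, against 9.77% and 2.21% of all genes. NR3C1 was read from the brighter of its 2 probes, and its dependence on the scaling is not given. It was not well above background on either TR9-MeTA14 array.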
